A study of Sus scrofa with 8 samples.

Results

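Chemokine ligands are small secreted proteins that steer leukocytes and other cells along gradients held on the vessel wall and the matrix. They act through receptors coupled to G proteins on the responding cell, and atypical receptors that do not signal in this way remove them. In the heart they are made by endothelium, fibroblasts, resident macrophages and stressed muscle, and some of them (CCL2, CXCL8) are switched on by inflammatory signals while others (CXCL12, CCL21) are made in resting tissue. The 10 genes described here are the chemokine ligands CCL2, CCL5, CCL19, CCL21, CXCL2, CXCL8, CXCL10, CXCL12, CXCL14 and CX3CL1, chosen by name. Of the 31908 gene models counted, 9 carried one of these names. CX3CL1 carried none and was found by its position. All 10 passed the filter on low counts.

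RNA was sequenced in bulk from the free wall of the right ventricle of 8 Yorkshire cross pigs, with 1 library per animal. The banded group held 4 castrated male piglets whose main pulmonary artery had been narrowed with a tape, at 4.5 ± 0.6 weeks of age and 6.4 ± 1.3 kg, until pressure in the right ventricle peaked at about 30 to 40 mmHg. The control group held 4 pigs of similar age and weight that were kept for 8 weeks, with the treatment given as none. The labels state neither the sex of the controls, nor a sham operation, nor the time from banding to collection. They give no sequencing batch, so a batch that followed the groups cannot be told apart from banding. Libraries held 31033679 to 34183338 counts. Levels are CPM, the counts of a gene scaled to a common library total by TMM, and levels of different genes are compared only per kilobase of exon (RPKM). TNNT2, the troponin T of heart muscle, stood at 9315 to 10159.6 CPM in banded and 6597 to 9023 CPM in control libraries. Banded 3 stood apart from its group: its Spearman correlation across genes with the other banded libraries was 0.960 to 0.965, against 0.971 to 0.978 among those 3. Control 4 also stood apart, with 0.977 to 0.981, against 0.984 to 0.986 among the other controls, and with the highest share of mitochondrial transcripts, 43.9%. In banded 4 the summed markers of platelets and red cells reached 1783 CPM, against 132 to 175 CPM in the other banded and 76.2 to 324 CPM in the control libraries. The most abundant of these markers was HBB, a globin gene whose model covers 4 coding genes. This sum does not tell platelets from red cells. Several, but not all, results that rest on banded 3, banded 4 or control 4 are given with and without them. No member passed in edgeR when any of these 3 was left out. In bulk tissue, fewer cells of a type and less RNA per cell cannot be told apart.

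None of the 10 chemokine genes passed the test between banded and control ventricles (edgeR quasi-likelihood F test, adjusted p under 0.05 by Benjamini-Hochberg). Over all 13697 genes tested, 6.97% passed, with 3.47% higher and 3.5% lower in banded ventricles. Each list of related genes and cell markers read below held at most 1 called gene in this fit. Whether any list held more calls than the share of all genes was not tested. At an unadjusted p under 0.05 there were 3 of the 10, CXCL10 with higher and CXCL14 and CCL21 with lower values in banded ventricles, where 23.8% of all genes reached that level. For none of the 10 did the 4 banded and the 4 control values lie wholly apart in CPM, as they did for 15.9% of all genes. The median log2 fold change of banded over control was 0.01 for the 10 and 0.02 for all genes, with 5 members positive and 5 negative. With DESeq2, which called 10.4% of all genes, CXCL10 alone passed (adjusted p = 0.0476), and with limma-voom CCL21 alone (0.0390). Leaving out banded 2, CXCL10 alone passed in edgeR (0.0490). In simulated data the main procedure called 10.4% of genes changed 1.5-fold and 49.3% of those changed 2-fold. A gene that did not pass may thus have changed by such an amount.

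**Figure D1:**
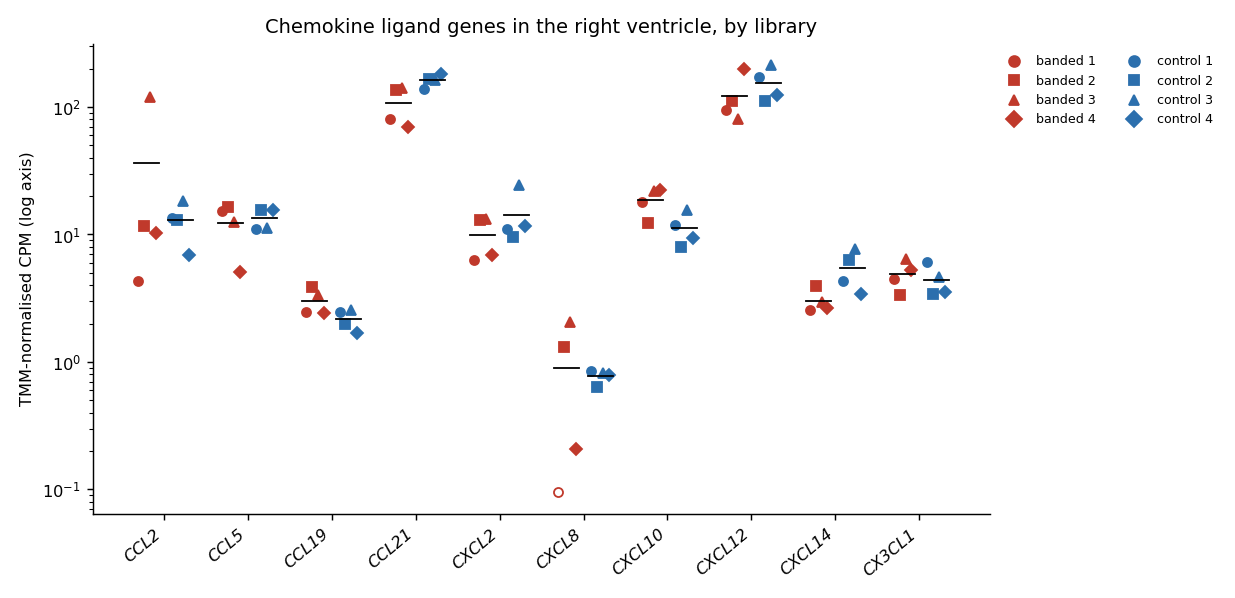
TMM-normalised CPM (log axis) of the 10 chemokine ligand genes in each of the 4 banded (left, red) and 4 control (right, blue) libraries, with marker shapes for replicates and bars for group means. The open circle marks CXCL8 in banded 1, which had 0 counts and is drawn at the level that 3 counts would give; CCL2 reached 119 CPM in banded 3 and at most 18.3 CPM in any other library.

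By RPKM, CCL21 was the most abundant of the 10 in both groups. This order and the shares below rest on annotated exon lengths, which were 543 bases for CCL21 and 11743 for CXCL12. CCL21 averaged 197 ± 67.2 RPKM in banded and 299 ± 33.3 RPKM in control ventricles (SD, n = 4 each). It made up 69.0% ± 10.4 of the summed RPKM of the 10 in banded and 81.8% ± 3.8 in control ventricles. In controls the next gene in order was CCL2 at 17.1 ± 6.20 RPKM, and no control value of CCL2 reached any of CCL21. In banded ventricles CCL2 came next with 48.0 ± 73.0 RPKM, and the ranges overlapped through banded 3, where CCL2 stood at 157 RPKM. CXCL10, CCL5 and CXCL12 followed in banded ventricles with means of 13.0, 12.2 and 10.3 RPKM, and in controls the same 3 genes averaged 7.82, 13.3 and 13.2 RPKM. Neighbours among these overlapped in both groups. CX3CL1, CCL19, CXCL2 and CXCL14 averaged 2.00 to 4.82 RPKM in banded and 2.67 to 4.39 RPKM in control ventricles. CXCL8 was last in both, with 0.468 ± 0.506 RPKM in banded and 0.404 ± 0.0489 RPKM in control ventricles, and its range did not reach that of its neighbour in either group.

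CCL21 and CCL19 are the ligands of CCR7, the receptor that guides dendritic cells and lymphocytes into lymphatic vessels and lymph nodes. CCL21 is made by lymphatic endothelium and binds heparan sulfate through a charged tail, while CCL19 lacks that tail and diffuses. In pig build Sscrofa11.1 their models are neighbours on the plus strand of chromosome 10, CCL21 at 10:31933733-32094583 and CCL19 at 10:32110064-32112739, with 15.5 kb between them. One exon of the CCL21 model lies at RASEF, so a part of its reads may come from there.

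CCL21 was counted at 80.8, 135, 141 and 70.0 CPM in banded 1 to 4, against 138, 166, 162 and 182 CPM in control 1 to 4. Banded 1 and 4 lay far under every control, and banded 3 lay just above control 1. The log2 fold change was -0.60 ± 0.22 (SE; 95% interval -1.09 to -0.12), with an adjusted p of 0.129 in edgeR. DESeq2 with all 8 libraries gave -0.60 with an adjusted p of 0.0734. Without banded 3 the log2 fold change was -0.77, with an adjusted p of 0.0577 in edgeR and 0.00629 in DESeq2. That DESeq2 fit was chosen after seeing the data. Of 6 markers of lymphatic endothelium, 5 had negative log2 fold changes, and their summed level was 81.3 to 143 CPM in banded and 136 to 172 CPM in control ventricles. PROX1, the transcription factor that sets lymphatic identity, fell to 10.7 ± 2.89 CPM in banded ventricles, against 19.1 ± 4.39 CPM in controls (log2 fold change -0.84 ± 0.22, adjusted p = 0.0461 in edgeR; its model also covers another gene). PROX1 missed the threshold without any 1 of banded 2 (adjusted p = 0.0764), banded 3 (0.079), banded 4 (0.0919), control 1 (0.133), control 2 (0.134) or control 3 (0.111), and with upper-quartile scaling (0.0534), library size alone (0.0538) or no robust estimation (0.0509). Set against the summed markers within each library, CCL21 stood at 0.768, 1.06, 0.986 and 0.861 in banded 1 to 4 and at 1.00, 0.965, 1.19 and 1.33 in control 1 to 4. These ratios overlapped (exact permutation test over samples, two-sided, p = 0.143). LYVE1 was the most abundant of the 6 markers. Whether other cells made a part of LYVE1, PROX1 or the other markers was not tested. Neither the ratio nor PROX1 is thus a measure of lymphatic content alone. Markers of blood endothelium and of pericytes leaned the same way and are given with CXCL12. The part of cell numbers in the values of CCL21 was not tested further. Without banded 4 its log2 fold change was -0.45 (adjusted p = 0.210), and without control 4 it was -0.54 (0.224).

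CCL19 had the opposite sign. It was counted at 2.46, 3.84, 3.37 and 2.43 CPM in banded and at 2.46, 2.00, 2.56 and 1.68 CPM in control libraries, and the groups overlapped. Its log2 fold change was 0.47 ± 0.27 (95% interval -0.12 to 1.07, adjusted p = 0.322), from 70 to 135 counts in banded and 51 to 91 counts in control libraries. The ratio of CCL21 to CCL19 CPM within a library separated the groups, at 32.8, 35.2, 41.9 and 28.8 in banded and at 56.2, 83.0, 63.5 and 108 in control libraries. Every banded ratio lay under every control ratio. On the log2 scale the difference was -1.13, with p = 0.0286 in a two-sided exact permutation test over samples, the smallest that 4 against 4 can give, and 0.0571 when adjusted over the 2 ratios computed. This ratio was chosen after the values had been seen. Its p-values leave out the other pairs it could have been picked from, so they do not test the separation. Leaving out each library in turn gave differences of -1.27 to -0.96.

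**Figure D2:**
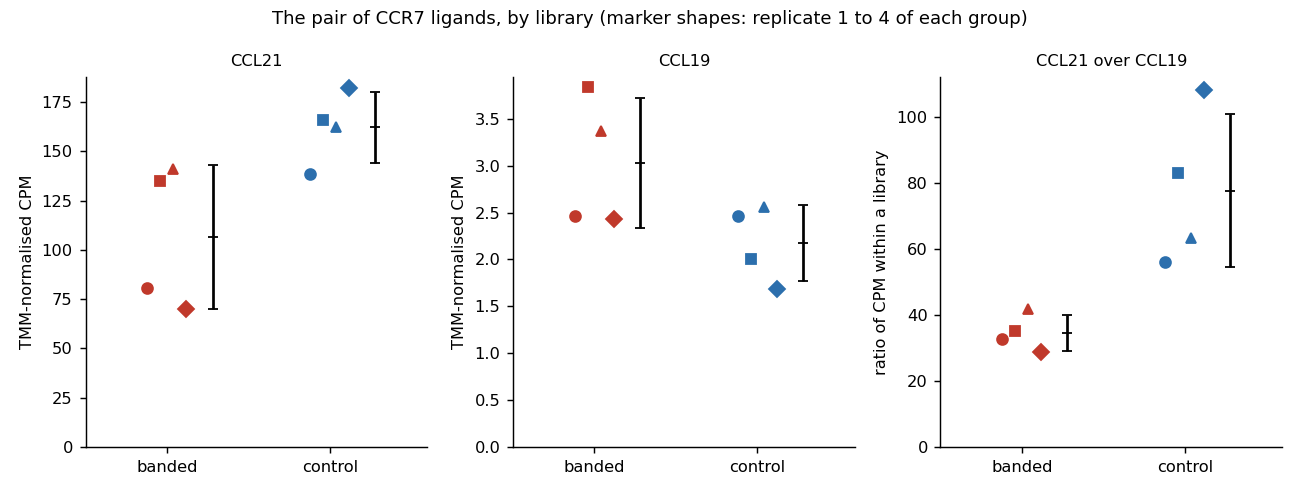
CCL21 and CCL19 (TMM-normalised CPM) and their ratio within each library, in 4 banded (left, red) and 4 control (right, blue) ventricles, with the mean and SD of each group beside the points. The 2 genes overlap between groups one by one, while the ratio runs from 28.8 to 41.9 in banded and from 56.2 to 108 in control libraries. The ratio was chosen after the values had been seen.

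CCR7 itself was near the floor, at 0.158 to 0.66 CPM in banded and 0.198 to 0.534 CPM in control libraries, where a count of 0 allows 0.0843 to 0.104 CPM (3 counts of the scaled total, counting error only). ACKR4, the atypical receptor that takes up CCL19 and CCL21, was counted at 5.15, 1.56, 2.10 and 2.47 CPM in banded and at 1.47, 1.22, 2.25 and 1.45 CPM in control libraries (log2 fold change 0.82 ± 0.39, adjusted p = 0.234). The ACKR4 model also overlaps ACAD11.

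CXCL12 is made by fibroblasts, pericytes and endothelium and keeps stem cells, lymphocytes and growing vessels in place through CXCR4. Its model lies at 14:91516429-91552766 on the plus strand. The counts came to 95.2, 112, 80.3 and 197 CPM in banded and at 172, 112, 212 and 124 CPM in control libraries. Banded 4 was the second highest of all 8, and the other 3 banded libraries lay at or below the lowest control. CXCL12 had a log2 fold change of -0.36 ± 0.30 (95% interval -1.02 to 0.31, adjusted p = 0.513), and -0.69 without banded 4 (adjusted p = 0.102).

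Markers of these source cells were read beside it. Of 7 markers of blood endothelium 5 were negative, with summed levels of 610 to 776 CPM in banded and 679 to 801 CPM in control libraries. EMCN, a sialomucin of capillaries and veins, fell to 41.7 ± 5.52 CPM in banded ventricles, against 62.0 ± 2.96 CPM in controls (edgeR log2 fold change -0.57 ± 0.12, adjusted p = 0.0207). It missed the threshold without banded 1 (0.0507), control 1 (0.0561), control 2 (0.0648) or control 3 (0.0747). Of 8 markers of pericytes and smooth muscle 6 were negative and 0 passed in edgeR (3 at an unadjusted p under 0.05), with a median log2 fold change of -0.43 and summed levels of 698 to 1054 CPM in banded and 937 to 1245 CPM in control libraries. Fibroblast markers were split, 3 positive and 3 negative, with PDGFRA, a receptor of platelet-derived growth factor, the one called. PDGFRA fell to 42.2 ± 5.37 CPM in banded ventricles, against 59.3 ± 6.53 CPM in controls (edgeR log2 fold change -0.49 ± 0.13, adjusted p = 0.0480). Leaving out 1 library ended that call for banded 1 (0.099), banded 4 (0.0869), control 1 (0.110), control 2 (0.151), control 3 (0.0973) and control 4 (0.0648), as did upper-quartile scaling (0.0537), library size alone (0.0703), no filter (0.0524) and no robust estimation (0.0515). Their part in the values of CXCL12 was not tested.

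CXCR4, its signalling receptor, rose. It was counted at 5.21, 4.78, 4.30 and 3.96 CPM in banded and at 2.05, 2.06, 1.83 and 2.41 CPM in control libraries, so that every banded value exceeded every control value. The mean was 4.56 ± 0.547 CPM in banded and 2.09 ± 0.241 CPM in control ventricles, with a log2 fold change of 1.13 ± 0.22 and an adjusted p of 0.0132 in edgeR. In the 18 alternative fits it stayed called, with log2 fold changes of 1.04 to 1.22 and adjusted p of 0.00017 to 0.0498. It was the one gene called among the 8 signalling receptors tested of 17 listed. ACKR3, which scavenges CXCL12, had the highest RPKM of the 6 atypical receptors, with 11.5 RPKM in banded and 13.1 RPKM in control ventricles (log2 fold change -0.18 ± 0.18, adjusted p = 0.598).

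**Figure D3:**
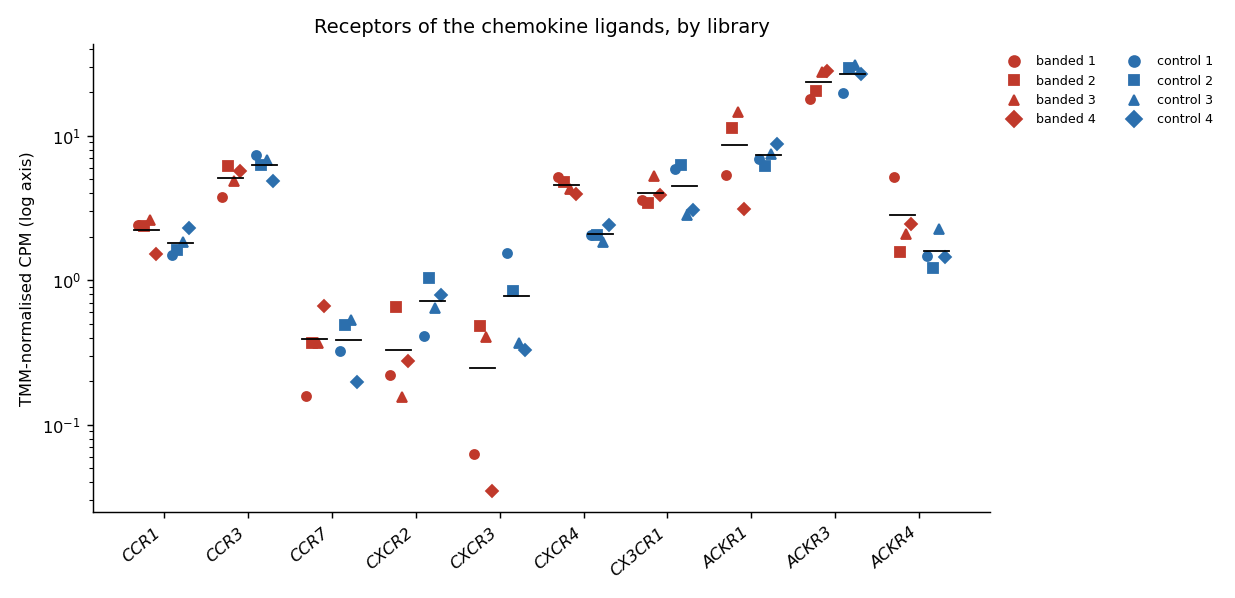
TMM-normalised CPM (log axis) of receptors of the 10 ligands in each banded (left, red) and control (right, blue) library, with marker shapes for replicates and bars for group means. CXCR4 separates the groups (3.96 to 5.21 CPM in banded and 1.83 to 2.41 CPM in control libraries), while the other receptors shown overlap.

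CXCL14 is a ligand of epithelium, fibroblasts and other stroma that attracts monocytes. Its model lies at 2:137803988-137812914 on the minus strand. CXCL14 was counted at 2.56, 3.95, 2.97 and 2.64 CPM in banded and at 4.31, 6.29, 7.64 and 3.43 CPM in control libraries. The groups met where banded 2 lay above control 4. Its log2 fold change was -0.84 ± 0.28 (95% interval -1.46 to -0.22), the most negative of the 10, and the adjusted p was 0.100. Without control 4 it was -1.01, with an adjusted p of 0.0582 in edgeR. In the 18 alternative fits it ranged from -1.01 to -0.63, with adjusted p of 0.054 to 0.286. These values rest on 76 to 139 counts in banded and 104 to 272 counts in control libraries.

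CXCL10 is induced by interferons and draws T cells and NK cells through CXCR3. Its model, at 8:71693339-71695948 on the minus strand, lies within the span of ART3, and the authors' counting was strand-specific. It was counted at 18.0, 12.2, 22.1 and 22.2 CPM in banded and at 11.96, 7.94, 15.6 and 9.38 CPM in control libraries. Banded 1, 3 and 4 lay above every control and banded 2 lay within the control range. The mean was 18.6 ± 4.73 CPM in banded and 11.2 ± 3.38 CPM in control ventricles, with a log2 fold change of 0.73 ± 0.24 (95% interval 0.20 to 1.26, adjusted p = 0.0980). Without banded 3 the adjusted p was 0.175, and without banded 4 it was 0.181.

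ISG15, a ubiquitin-like protein that interferons induce strongly, was high with CXCL10 in banded 4 but low in banded 3. It was counted at 25.2, 10.8, 9.67 and 81.7 CPM in banded and at 24.2, 8.99, 19.7 and 23.5 CPM in control libraries, so that banded 4 was high and banded 3, where CXCL10 was also high, was low. Its log2 fold change was 0.74 ± 0.74 (adjusted p = 0.604), and -0.33 without banded 4. The ISG15 model also covers another coding gene. Of the other ligands of CXCR3, CXCL9 had a log2 fold change of -0.15 ± 0.26 (adjusted p = 0.779) and CXCL11 of -0.28 ± 0.60 (0.824). The CXCL11 model, like that of CXCL10, also overlaps ART3. Of the 11 interferon genes tested of 14 listed, 9 had positive log2 fold changes. Highest in banded 4 were 7 of the 11. CXCL10 stood at 22.2 CPM there, nearly level with its 22.1 CPM in banded 3. The summed level of the 13 matched genes was 374, 275, 263 and 812 CPM in banded 1 to 4, and 234 to 361 CPM in controls. The part of interferon in the values of CXCL10 was not tested. IRF1 was the one called. This transcription factor of interferon responses fell to 17.1 ± 4.69 CPM in banded ventricles, against 28.6 ± 3.05 CPM in controls (log2 fold change -0.74 ± 0.18, adjusted p = 0.0327; its model also covers another gene). IRF1 missed the threshold when any 1 library other than banded 3 was left out (adjusted p 0.0653 to 0.0832), and its adjusted p was 0.00317 without banded 3.

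CXCR3 was low and uneven, at 0.0631, 0.483, 0.402 and 0.0347 CPM in banded and at 1.55, 0.841, 0.365 and 0.33 CPM in control libraries (log2 fold change -1.62 ± 0.80, adjusted p = 0.246). DPP4, the membrane protease that clips CXCL10 and CXCL12, was counted at 35.4, 27.1, 21.2 and 51.4 CPM in banded and at 71.6, 45.4, 38.5 and 68.7 CPM in control libraries (log2 fold change -0.73 ± 0.29, adjusted p = 0.162). Without banded 4 it passed, at -1.003 (adjusted p = 0.0452).

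CCL5 is made by T cells, NK cells and platelets and binds receptors that include CCR1 and CCR3. Its model lies at 12:39648598-39659118 on the plus strand. CCL5 was counted at 15.2, 16.4, 12.5 and 5.04 CPM in banded and at 11.03, 15.6, 11.3 and 15.6 CPM in control libraries. Banded 4 was the lowest of all 8 and the other banded libraries lay within or just above the control range. The log2 fold change was -0.12 ± 0.31 (95% interval -0.81 to 0.57, adjusted p = 0.856), and 0.14 without banded 4. The summed level of 10 tested markers of T and NK cells was likewise lowest in banded 4, with a range of 16.3 to 35.8 CPM in banded and 27.1 to 32.5 CPM in control libraries, and 0 of the 10 were called (0 at an unadjusted p under 0.05). CCR1 had a log2 fold change of 0.30 ± 0.30 (adjusted p = 0.577; its model also covers XCR1).

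CCL2 calls monocytes out of blood through CCR2 and is among the first genes that NF-kB switches on. Its model lies at 12:40798109-40800028 on the minus strand. CCL2 was counted at 4.32, 11.7, 119 and 10.4 CPM in banded and at 13.5, 13.1, 18.3 and 6.87 CPM in control libraries. Banded 3 lay far above every other library, banded 1 lay below every control, and banded 2 and 4 lay within the control range. With all 8 libraries the log2 fold change was 1.49 ± 1.07 (95% interval -1.07 to 4.05, adjusted p = 0.456), and without banded 3 it was -0.56 (adjusted p = 0.462). The sign of the change with all 8 libraries rested on banded 3. DESeq2 gave CCL2 no p-value in the fit of all 8, since its rule on outlying counts removed it. The SD of log2 CPM of CCL2 in the banded group was 2.04, larger than for 99.5% of genes, against 0.592 in the control group.

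Of the 12 tested genes of NF-kB, tumour necrosis factor and interleukin 1, 6 were highest in banded 3. So were 4 of 6 atypical receptors, 4 of 13 protease and scaffold genes and 3 of the 10 members. Of 11 interferon genes it was 1, and of 10 macrophage markers 0. The share of all genes highest in banded 3 was not computed, so these counts have no background. The summed level of the 14 matched genes of the NF-kB list was 255, 299, 317 and 227 CPM in banded 1 to 4, and 207 to 232 CPM in controls. In this sum banded 3 was close to banded 2. IL6, a cytokine of the acute phase, stood at 3.96 CPM in banded 3, at 0.6 to 0.853 CPM in the other banded libraries and at 0 to 1.74 CPM in controls. ICAM1, a leukocyte adhesion molecule, stood at 43.5 CPM there, at 11.8 to 16.7 CPM in the other banded libraries and at 14.4 to 20.6 CPM in controls. CCL4, a CC chemokine that attracts monocytes and T cells, stood at 9.73 CPM in banded 3, at 1.52 to 2.33 CPM in the other banded libraries and at 3.58 to 4.23 CPM in controls. With all 8 libraries CCL4 had a log2 fold change of -0.03 ± 0.53 (adjusted p = 0.978), and without banded 3 it fell, at -1.04 (adjusted p = 0.035). The CCL4 model also covers another coding gene. ACKR2, the atypical receptor that degrades inflammatory CC chemokines such as CCL2, CCL4 and CCL5, was counted at 55.6, 36.7, 136 and 25.5 CPM in banded and at 15.7, 22.7, 27.5 and 35.8 CPM in control libraries (log2 fold change 1.32 ± 0.54, adjusted p = 0.188). The ACKR2 model also overlaps ZNF662. ACKR2 was highest in banded 3, and its fold change without that library is not given. Of the 12 genes of the NF-kB list, 10 had positive log2 fold changes and 0 passed (3 at an unadjusted p under 0.05). NFKBIA, the inhibitor that NF-kB induces, had the highest RPKM of these and a log2 fold change of 0.71 ± 0.25 (adjusted p = 0.110), while TNF had one of -1.09 ± 0.41 (0.141). NFKBIA passed in DESeq2 (0.0437), in limma-voom (0.0250) and without control 4 (0.0368).

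**Figure D4:**
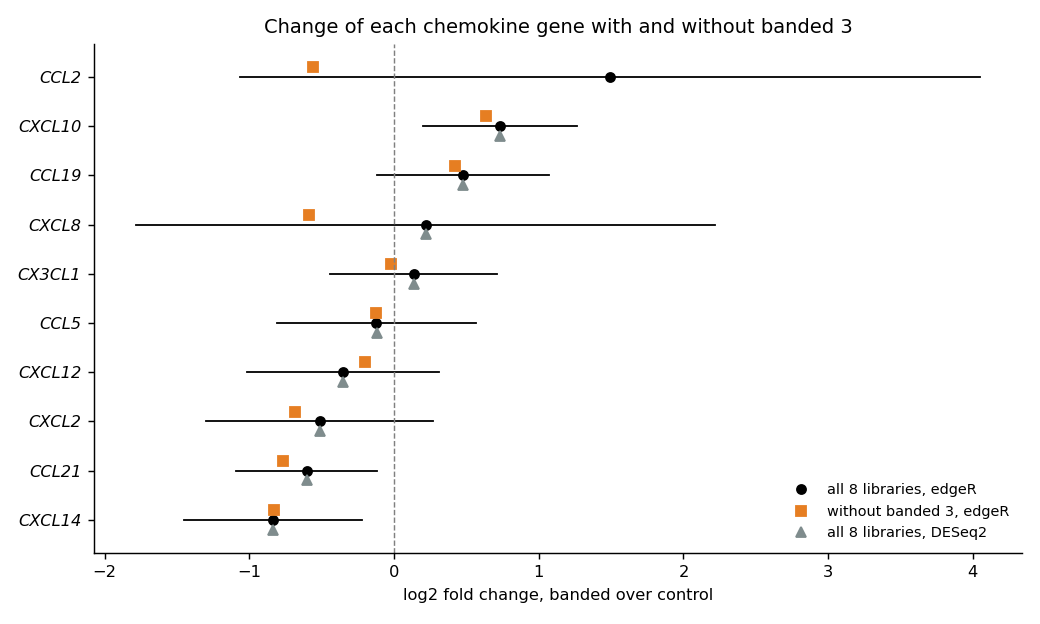
Log2 fold change of banded over control for each of the 10 genes, from all 8 libraries in edgeR (black circles, with 95% intervals), without banded 3 in edgeR (orange squares) and from all 8 in DESeq2 (grey triangles; CCL2 has no p-value there and is not drawn). CCL2, CXCL8 and CX3CL1 change sign without banded 3, while CXCL10, CXCL14 and CCL21 keep theirs.

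CXCL8 and CXCL2 are the ligands here that draw neutrophils through CXCR2. Their models lie on the plus strand of chromosome 8, CXCL8 at 8:69932643-69935861 and CXCL2 at 8:70054888-70159145. The CXCL2 model also covers a second coding gene and a pseudogene of the cluster, so its counts are the sum of close copies and cannot be assigned to CXCL2 alone.

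CXCL8 was counted at 0, 1.31, 2.07 and 0.208 CPM in banded and at 0.85, 0.638, 0.814 and 0.792 CPM in control libraries. The banded values lay on both sides of a narrow control range: 0 and 6 counts in banded 1 and 4, 46 and 67 counts in banded 2 and 3, and 22 to 29 counts in controls. CXCL8 had a log2 fold change of 0.22 ± 0.90 (95% interval -1.78 to 2.22, adjusted p = 0.914), and the SD of log2 CPM in the banded group was larger than for 99.8% of genes. CXCL2 was counted at 6.28, 13.1, 13.2 and 6.95 CPM in banded and at 10.97, 9.62, 24.3 and 11.6 CPM in control libraries. Control 3 lay far above the other controls, and banded 1 and 4 were the lowest, as they were for CXCL8. The log2 fold change was -0.52 ± 0.35 (95% interval -1.30 to 0.27, adjusted p = 0.415), and -0.12 without control 3.

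CXCR2 was counted at 0.154 to 0.654 CPM in banded and 0.411 to 1.04 CPM in control libraries (log2 fold change -1.13 ± 0.58, adjusted p = 0.264). Neutrophil markers were close to absent: the 7 summed to 2.01 to 3.09 CPM in banded and 2.27 to 2.75 CPM in control libraries, with MPO and ELANE at 0 in all 8. ACKR1, which carries CXCL8 and CCL2 across venules, was counted at 5.37, 11.3, 14.6 and 3.09 CPM in banded and at 6.92, 6.20, 7.47 and 8.71 CPM in control libraries (log2 fold change 0.23 ± 0.41, adjusted p = 0.783). Banded 2 and 3 lay above and banded 1 and 4 below the controls, the same split as for CXCL8. Without banded 3 the log2 fold change of ACKR1 was -0.15 (adjusted p = 0.866 in edgeR).

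CX3CL1 is a chemokine anchored in the endothelial membrane by a stalk, from which ADAM10 and ADAM17 release it, and it binds CX3CR1 on monocytes and NK cells. The model used here, at 6:19320092-19322093 on the plus strand, lies wholly within the RefSeq gene CX3CL1 of the same build and has no name in the deposited files. It was counted at 4.48, 3.33, 6.40 and 5.25 CPM in banded and at 6.07, 3.42, 4.63 and 3.57 CPM in control libraries, and the groups overlapped over most of their range. CX3CL1 had a log2 fold change of 0.14 ± 0.26 (95% interval -0.44 to 0.71, adjusted p = 0.807), and -0.025 without banded 3. CX3CR1 was counted at 3.41 to 5.22 CPM in banded and 2.84 to 6.23 CPM in control libraries (log2 fold change -0.17 ± 0.30, adjusted p = 0.783). ADAM10 and ADAM17 had log2 fold changes of 0.06 ± 0.15 (adjusted p = 0.860) and 0.09 ± 0.22 (0.846). The ADAM17 model also overlaps IAH1.

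Of the 32 other chemokine ligands listed, 22 matched a gene model and 12 passed the filter. CXCL16, a membrane-bound ligand that also takes up oxidised lipid, was the one called. It rose to 15.5 ± 2.00 CPM in banded ventricles, against 10.3 ± 1.59 CPM in controls (log2 fold change 0.60 ± 0.16, adjusted p = 0.0483), and its model also covers ZMYND15 and MED11. CXCL16 missed the threshold when any 1 library other than banded 4 was left out: the adjusted p was 0.0813 without banded 1, 0.108 without banded 2, 0.0656 without banded 3, and 0.126, 0.061, 0.149 and 0.0867 without control 1 to 4. It also ended with upper-quartile scaling (0.0564), with library size alone (0.163) and without the filter (0.051). CCL14 was the most abundant of the 12, with 78.9 RPKM in banded and 56.6 RPKM in control ventricles (log2 fold change 0.48 ± 0.23, adjusted p = 0.245). CCL26, a ligand of CCR3, lay wholly lower in banded ventricles, with 0.521 to 0.803 CPM against 1.26 to 4.12 CPM in controls (log2 fold change -1.63 ± 0.47, adjusted p = 0.0621), and DESeq2 called it (0.0123). CCR3 had a log2 fold change of -0.30 ± 0.22 (adjusted p = 0.434), and its model also covers CCR2, so CCR2 has no value of its own here. XCR1, the receptor of XCL1 on cross-presenting dendritic cells, had one of -1.44 ± 0.57 (adjusted p = 0.154). It was called lower in limma-voom (adjusted p = 0.0235) and without banded 3 (-2.25, 0.0216). GPR182, an atypical receptor of endothelium, was also called lower without banded 3 (-1.54, 0.0333) and not with all 8 libraries (-0.67 ± 0.51, 0.469). The GPR182 model also overlaps ZBTB39.

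Chemokines are held in place by heparan sulfate and trimmed by proteases. Of 13 such genes tested of 14 listed, 1 was called, where 6.97% of all genes were. This was GPC1, a heparan sulfate proteoglycan tethered to the membrane. It rose to 120 ± 15.1 CPM in banded ventricles, against 74.9 ± 8.84 CPM in controls (log2 fold change 0.68 ± 0.14, adjusted p = 0.0149), and lost its call without control 1 (0.0602) or control 3 (0.0589) and with library size alone (0.0614). MMP2, which cleaves CXCL12, had the highest RPKM of the list, with 72.2 RPKM in banded and 94.4 RPKM in control ventricles (log2 fold change -0.39 ± 0.21, adjusted p = 0.286).

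Markers of macrophages and monocytes, cells that make CCL2 and answer CCL2 and CX3CL1, leaned one way. All 10 had positive log2 fold changes, with a median of 0.60, and their summed level was 719 to 1385 CPM in banded and 475 to 732 CPM in control libraries. At an unadjusted p under 0.05 in edgeR there were 7 of the 10, where 23.8% of all genes reached that level. CD14 was the one called, with 16.5 ± 5.56 CPM in banded and 7.80 ± 2.41 CPM in control ventricles (log2 fold change 1.08 ± 0.28, adjusted p = 0.0430). It no longer passed without banded 1 (0.0647), banded 2 (0.0944), banded 3 (0.0781), control 1 (0.126), control 2 (0.0847) or control 3 (0.125), nor with library size alone (0.0623). The summed macrophage markers were highest in banded 2 and not in banded 3, where CCL2 was highest. The part of macrophages in the chemokine values was not tested.

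For each member, the gene of most similar course over the 8 libraries was sought among 11320 genes with a symbol and at least 1 CPM on average, by the root mean square difference of standardised log2 CPM. For CCL2 these were DIPK2B (0.135), FJX1 (0.201) and FMNL3 (0.237). FJX1 shared the peak in banded 3, with 17.5 CPM there, 2.15 to 4.26 CPM in the other banded libraries and 3.10 to 7.02 CPM in controls. For CCL21 they were PHETA2 (0.157), KLRK1 (0.184) and GLIS3 (0.203), and for CXCL14 ARFGEF1 (0.134), LBR (0.252) and ZFC3H1 (0.294). For CXCL10 the nearest was C15orf61 (0.271), for CCL19 INF2 (0.185), for CXCL8 SCO1 (0.246), for CX3CL1 E2F3 (0.246), for CCL5 SLC26A2 (0.258), for CXCL12 DNASE1 (0.294) and for CXCL2 SREBF2 (0.347). With 8 libraries some genes lie close by their number alone, so these names are a description.

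The authors' deposited table gives log2 fold changes of control over banded, the reverse of those above. In the authors' deposited table CCL21 was the one member of 10 with an adjusted p under 0.05 (log2 fold change 0.77, SE 0.216, adjusted p = 0.00664), where 10.6% of its genes with an adjusted p were under 0.05. For CXCL14 the authors' deposited table gives 0.83 (adjusted p = 0.090), for CXCL10 -0.63 (0.124) and for CCL2 0.56 (0.352). A DESeq2 fit without banded 3 matched the authors' deposited table for 100% of 16302 genes, within 1% of the mean normalised count and within 0.01 of the log2 fold change. A fit of all 8 libraries matched 15.0% of genes in the mean and 9.16% in the log2 fold change, and fits without any other 1 library matched at most 22.1% and 12.4%. For CCL2 and CCL21 the authors' deposited table is thus to be read beside the values without banded 3, and not beside those of all 8 libraries.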

How the data were processed

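Whole-number counts of read pairs per gene were deposited, made by the authors with featureCounts 1.6.2 (mapping quality at least 10, reverse-stranded) on an Ensembl annotation of Sscrofa11.1, per the file headers. The submitters' processing notes also name HISAT2, Trimmomatic, DESeq2 and Subread. The authors' deposited table holds a mean normalised signal, log2 fold changes, a Wald score, p-values and the percent identity of human orthologues, by the authors; the model behind it is not stated in the labels.

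Genes were kept by filterByExpr (minimum count 10, minimum total 15), scaled by TMM and tested with edgeR 4.0.16 (quasi-likelihood F test, robust, two-sided, Benjamini-Hochberg over 13697 genes, threshold 0.05) in R 4.3.3. The SE is the log2 fold change over the square root of F, and 95% intervals use the t distribution. In simulated data the procedure called 10.4% of genes changed 1.5-fold, 49.3% of those changed 2-fold and 84.8% of those changed 4-fold. Of its calls there, 6.8% were false. Alternatives were DESeq2 1.42.0, limma-voom (limma 3.58.1), other scalings and filters, no robust estimation, no mitochondrial genes, and each library left out. No library was a copy of another (chi-square over degrees of freedom at least 27.6). Mitochondrial transcripts took 30.5% to 43.9% of counts.

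The members and lists were chosen with earlier results of these data known. Named were the 10 members, their receptors, the called genes and the most abundant gene of each chemokine list, the called genes of the marker lists beside a result, and for each member the genes most like it. CCL4, CCL26, IL6, ICAM1, TNF, CXCL9, CXCL11, DPP4, ADAM10, ADAM17, ACKR2, XCR1 and GPR182 were added after their values were seen. CX3CL1 and CXCR2 were matched by RefSeq position (at least 0.8 of the span, or wholly inside). One listed gene is not reported here. No sequences were used here.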

Additional observations from a re-analysis of the deposited data

Results flagged for a closer look

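CCL2 in banded 3 lay far from the other banded libraries. It stood at 119 CPM there and at 4.32 to 11.7 CPM in the other 3, and the gap to the nearest was 0.936 of the group's whole range, above the 95% critical value for 4 samples (Dixon's test). CXCL2 in control 3 lay far from the other controls, at 24.3 CPM against 9.62 to 11.6 CPM, with a gap of 0.867 of the range. These were 2 of the 62 groups examined, and chance gives about 5% of groups.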

How the results depend on the processing

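No paired analysis was possible because the labels give the animals no pairing. The count of all genes called was 954, against 1631 in DESeq2, 1534 in DESeq2 without banded 3 (chosen after seeing the data) and 399 to 961 when each library was left out, the lowest without control 1. Of the 10 members 0 were called, against 1 in DESeq2 (CXCL10), 1 in limma-voom (CCL21), 1 in DESeq2 without banded 3 (CCL21), and 0 to 1 with each library left out. The median over all genes was -0.09 (log2) with library size alone, against 0.02 with TMM, and CXCL10, CXCL14 and CCL21 had 0.60, -0.96 and -0.68. Signs turned in limma-voom for CCL2 (-0.39), CXCL8 (-2.12) and ACKR1 (-0.027). Without banded 3, DESeq2 gave -0.56 for CCL2, -0.61 for CXCL8, -0.024 for CX3CL1, -0.15 for ACKR1 and 0.024 for CCR7. CCR7 was 0.0036 in DESeq2, 0.0011 with median-of-ratios scaling and 0.0026 without the filter. With each library left out, values crossing 0 ranged from -0.56 to 1.87 (CCL2), -0.29 to 0.14 (CCL5), -0.59 to 0.63 (CXCL8), -0.025 to 0.33 (CX3CL1), -0.15 to 0.51 (ACKR1), -0.37 to 0.26 (CCR7), -0.34 to 0.028 (CX3CR1) and -0.33 to 1.04 (ISG15). CCL19, CCL21, CXCL2, CXCL10, CXCL12 and CXCL14 kept their sign in the 18 alternatives. The cause of these differences was not tested. Depth limits the genes that lie within a few CPM of the floor, among them CXCL8, CCR7, CXCR2, CXCR3, CCL19, CCL26 and IL6. The level of XCR1 is not given in the text.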

Other observations

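One unnamed gene model on chromosome 12 (12:39590653-39595657, plus strand) near CCL5, for which the authors' deposited table lists several human CC chemokine orthologues, was higher in banded ventricles. It averaged 7.89 ± 1.83 CPM in banded and 2.65 ± 0.97 CPM in control ventricles (SD, n = 4 each; edgeR log2 fold change 1.57 ± 0.29, adjusted p = 0.00987). It was chosen after its values were seen, and the files give it no name of its own.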
